A study of Homo sapiens with 43 samples.

Results

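MYC, on human chromosome 8, encodes a transcription factor that drives cell growth, and PVT1 is the long non-coding RNA gene that follows it. H3K27ac peaks and peaks of the transcription factors Sox2, Brn2 and p63 were collected from a window of 2.6 Mb around both genes in lung squamous cell carcinoma cell lines. The members were all peaks that lay in chr8:128200001-130800000 of hg19, a window given by coordinates. The window was chosen with earlier results of these lists known. It held 1260 of the 650700 peaks of 27 lists. MYC lies at chr8:128748315-128753680, so the window reached 548 kb upstream and 2052 kb downstream of the MYC start.

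Acetylation of lysine 27 of histone H3 marks active promoters and enhancers. Few other protein-coding genes lie near MYC, and its transcription is known to depend on distant enhancers on both sides, used in different cell types, some of which lie within or beyond PVT1. Sox2 acts in progenitor cells and is often amplified in squamous tumours, p63 sets the identity of basal and squamous epithelium, and Brn2 (POU3F2), of the POU family, acts mainly in neural cells. By RefSeq order on GRCh38, the genes before MYC are CASC19, CCAT1, CASC21, CASC8, CCAT2, POU5F1B and CASC11, and those after it are PVT1, LINC02912, LINC00824, LINC00976, LINC00977, CCDC26, GSDMC and CYRIB. That order gives names only. No annotation of hg19 was used here, so peaks are given by hg19 position and by distance from the MYC start, and the extent of PVT1 is not drawn.

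The labels describe 43 ChIP-seq samples of lung squamous carcinoma lines, of which 27 had a peak list and 16 were inputs that were not analysed here. H3K27ac was mapped in 13 unmodified lines. Set A held LK2 and NCI-H520, which had Sox2 and Brn2 ChIP. Set B held HCC95, KNS62 and HCC2814, which had Sox2 ChIP, and set C held Calu-1, HARA, HCC2279, EBC-1, HCC2450, LC-1/SQSF, NCI-H2887 and SQ-1, which had H3K27ac alone. LK2_GFP and LK2_DNp63 are derivatives of LK2 with H3K27ac and Sox2 lists, and LK2_DNp63 has the single p63 list. The labels do not say how the derivatives were made. GFP commonly serves as a control protein, and DNp63 is a common name of the basal-cell isoform of p63. All cells grew in the same serum-containing medium without a treatment. The labelled cell type was not checked against marker genes, because the lists name no genes.

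LK2 and NCI-H520 had 2 H3K27ac libraries each and every other list was 1 library. The labels do not say that repeat libraries came from separate cultures, so their spread may be technical. The H3K27ac lists held 16470 to 43480 peaks over 24.6 to 73.7 Mb, and the factor lists 1298 to 14048 peaks. The lists hold no read counts, so sequencing depth is unknown. Covered length means the base pairs under peaks. It depends on how much was called in a library, so shares of a list and lengths scaled to the same total are given below.

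By covered length, the window held more H3K27ac than the median stretch of the genome in every line. It took 0.118% (NCI-H2887) to 0.449% (HARA) of the H3K27ac covered length of a library, against a median of 0.0547% to 0.0713% over 1156 tiles of the same length along the genome. HARA and LC-1/SQSF ranked highest, each with only 7 of these tiles ahead of it (rank 8), followed by HCC2279 (rank 9), whereas NCI-H2887 ranked 294. By number of peaks NCI-H2887 was at the share given by length, with 38 of 43480 peaks in the window (0.0874%, Wilson 95% interval 0.0637 to 0.120, beside 0.0857% of the genome's length). In set A the share was 0.238% and 0.334% in the libraries of LK2 and 0.356% and 0.401% in those of NCI-H520. The window thus ranked 57 and 19 in LK2 and 18 and 12 in NCI-H520. Set B lines had 0.248% (HCC95), 0.187% (KNS62) and 0.260% (HCC2814). The 3 sets overlapped in this total, with 0.332% ± 0.0654 (SD, n = 2) in set A, 0.232% ± 0.0389 (SD, n = 3) in set B and a range of 0.118% to 0.449% in set C.

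The lines differed in the side of MYC that carried the acetylation. Of the H3K27ac covered length of the window, 63.3% lay upstream of the MYC start in HCC95, 61.5% in KNS62 and 68.8% in HCC2814. In LK2 the upstream share was 9.55% and 9.36% in its libraries, and in NCI-H520 it was 25.1% and 20.6%. Set B was therefore above set A in every library, with 64.5% ± 3.84 (SD, n = 3) against 16.1% ± 9.46 (SD, n = 2). Set C did not form 1 group. HARA (81.5%) and LC-1/SQSF (56.3%) carried most of their acetylation upstream, and NCI-H2887 had 39.4%. The other 5 lines of set C had lower shares, from 6.10% in HCC2450, 7.33% in HCC2279 and 7.52% in Calu-1 to 20.9% in EBC-1 and 25.5% in SQ-1. The upstream side is the shorter part of the window, 548 kb beside 2052 kb downstream. An even spread would therefore also put most of the acetylation downstream. These shares are sums over the window and were not tested.

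**Figure D1:**
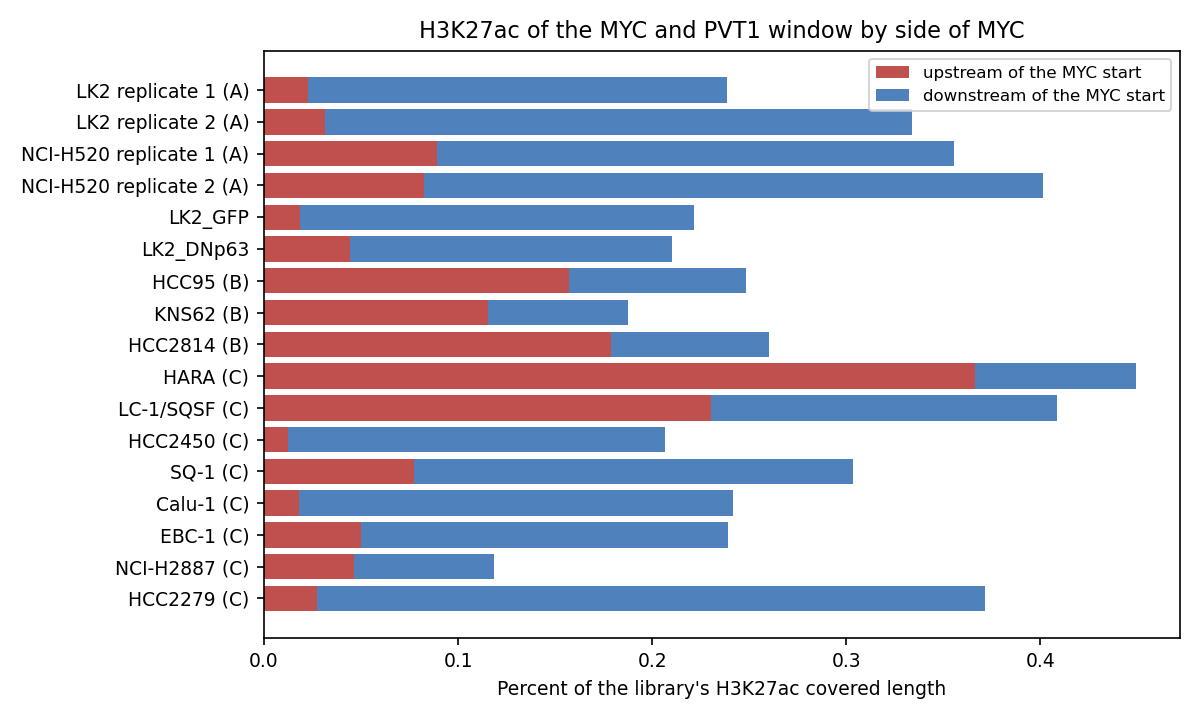
Share of each library's H3K27ac covered length (percent, x axis) that lay in the window, split into upstream (red) and downstream (blue) of the MYC start, with 1 bar per library and the set in parentheses. The upstream part was 61.5% to 68.8% of the bar in set B and 9.36% to 25.1% in set A, and HARA had the longest bar.

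The MYC promoter itself was acetylated in nearly all lists. A single H3K27ac peak lay across the MYC start in 16 of 17 libraries and in 12 of the 13 lines, 5.55 kb (HCC2814) to 11.3 kb (LC-1/SQSF) long with a median of 7.18 kb. The exception was SQ-1, in which 1 peak ended 5 bp before the start and a peak of 4.28 kb began 319 bp after it, so the promoter of SQ-1 was flanked by acetylation as well. In width the peak stood in the top 0.0849% (LK2 replicate 1) to 2.69% (NCI-H520 replicate 1) of its list. By the authors' score it lay in the top 0.362% to 8.17%, counting ties, because in 14 libraries it had the score 3100 that 101 to 2849 peaks of the same list shared.

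The 50 kb bin with the MYC start, chr8:128700001-128750000, was acetylated in all 13 lines. Its scaled covered length was 10.1 kb in LK2 (9.43 and 10.7 kb in its libraries) and 6.61 kb in NCI-H520 (7.64 and 5.58 kb). It was 6.87, 4.78 and 6.09 kb in HCC95, KNS62 and HCC2814. In set C it ran from 2.79 kb (Calu-1) over a median of 3.74 kb to 6.18 kb (LC-1/SQSF). As scaled line means, LK2 was the highest line, both lines of set A were above all of set C, and set B overlapped both other sets. This order depended on the scaling and on the mean. Replicate 2 of NCI-H520 was below LC-1/SQSF, and unscaled the bin held 5.18 and 4.98 kb in LK2 and 6.97 and 5.36 kb in NCI-H520, beside 8.09 kb in LC-1/SQSF, 7.48 kb in HCC95 and 6.13 kb in KNS62. The bin missed the threshold between set A and set C (log2 difference 0.90, SE 0.28, limma adjusted p = 0.0501), and passed it under 4 of 18 alternatives, with adjusted p from 0.0225 to 0.504 over them. The next bin downstream, chr8:128750001-128800000, was also covered in all 13 lines, with 8.95 kb in LK2, 3.67 kb in NCI-H520, 3.60 to 5.31 kb in set B and 2.62 to 7.97 kb in set C.

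Beyond the promoter, 4 stretches with strong acetylation are described by selected bins, and different lines carried different ones. The first was upstream, from chr8:128200001 to chr8:128700000. In its first bin, chr8:128200001-128250000, the scaled covered length was 38.0 kb in HARA, 27.5 kb in LC-1/SQSF, 21.1 kb in SQ-1 and 17.5, 17.8 and 20.5 kb in HCC95, KNS62 and HCC2814. It was 8.04 kb in NCI-H520 and 0 in both libraries of LK2, the only unmodified line with no H3K27ac peak there. This was the window's fullest bin in HCC95, KNS62, HCC2814, LC-1/SQSF and NCI-H2887. The next bin, chr8:128250001-128300000, was the fullest in HARA (41.6 kb), where a peak of 44.3 kb was the fifth widest of 35621 peaks (width rank 5). LC-1/SQSF had 24.9 kb in that bin, NCI-H520 16.2 kb and HCC2814 15.8 kb, whereas the other lines had 0 to 3.75 kb.

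Set A was not empty over the whole upstream stretch. In chr8:128550001-128600000 LK2 had 6.16 kb and NCI-H520 3.91 kb of scaled covered length. Set B had 1.36 to 6.67 kb there and set C 0 to 7.78 kb. The part of the upstream stretch closest to MYC was acetylated mainly in 5 lines. In chr8:128650001-128700000, which ends 48.3 kb before the MYC start, the scaled covered length was 14.3, 10.9 and 9.19 kb in HCC95, KNS62 and HCC2814, 17.1 kb in LC-1/SQSF and 10.1 kb in HARA. No other line exceeded 1.24 kb (NCI-H2887), and LK2 had 0. The bin held a merged region of 16.9 kb, chr8:128669618-128686555, found in those 5 lines and in no other. The difference between set A and set B did not pass the threshold (log2 difference -3.38, SE 1.19, limma adjusted p = 0.0954), and neither did that between set B and set C (2.52, SE 0.88, limma adjusted p = 0.361), in which HARA and LC-1/SQSF lay on the side of set B.

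The second stretch began after MYC, on the side of PVT1. In chr8:128900001-128950000, 152 to 202 kb downstream of the MYC start, the scaled covered length was 34.0 kb in HCC2279, 17.7 kb in Calu-1, 16.3 kb in EBC-1, 11.3 kb in HCC2450, 10.8 kb in SQ-1 and 7.73 kb in NCI-H2887. Set A had 3.84 kb (LK2) and 9.21 kb (NCI-H520), and HCC95, HCC2814 and HARA had none. A peak of 19.3 kb in HCC2279 was the widest of its window. In chr8:129150001-129200000, 402 to 452 kb downstream, SQ-1 (23.4 kb), HCC2279 (21.4 kb), EBC-1 (17.9 kb), HCC2450 (14.7 kb) and Calu-1 (13.7 kb) were high, and the remaining 8 lines had 0 (LK2) to 4.97 kb (LC-1/SQSF). The same 5 lines were thus high in both bins. They carried little upstream acetylation, apart from SQ-1 and EBC-1 in the first bins of the window. Closer to MYC the lines did not divide in this way. In chr8:128850001-128900000, 102 to 152 kb downstream, HCC2279 had 25.4 kb, HARA 20.6 kb, LC-1/SQSF 15.1 kb and EBC-1 11.1 kb. KNS62, HCC2814 and HCC95 had 10.8, 10.4 and 9.77 kb there, above SQ-1 (7.40 kb), Calu-1 (6.95 kb) and HCC2450 (4.77 kb).

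The third stretch was the one high in set A and is described with its tests below. The fourth lay near the far end. In chr8:130700001-130750000, 1952 to 2002 kb downstream, SQ-1 had 17.9 kb, Calu-1 17.8 kb, HCC2279 14.4 kb, EBC-1 8.79 kb and NCI-H2887 4.63 kb of scaled covered length. KNS62 had 1.997 kb and the other 7 lines had none, HCC2450 among them. This bin was the fullest of the window in Calu-1.

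**Figure D2:**
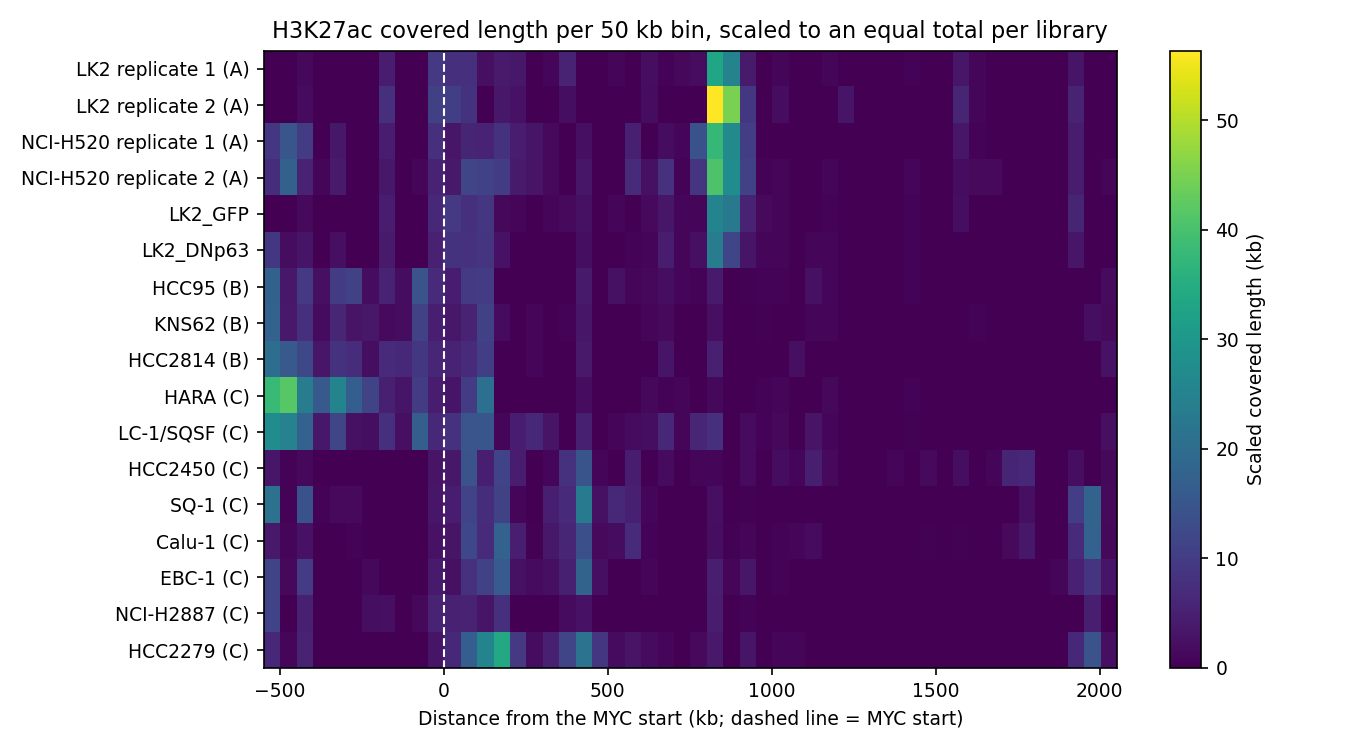
Scaled H3K27ac covered length (kb, colour) in 52 bins of 50 kb (x axis, distance from the MYC start in kb) for the 17 H3K27ac libraries (rows, set in parentheses). HARA, LC-1/SQSF and set B were bright upstream of the dashed line, and LK2, its derivatives and NCI-H520 at 802 to 902 kb downstream. HCC2279, Calu-1, EBC-1, SQ-1 and HCC2450 were bright in bins between 152 and 452 kb downstream. At 102 to 152 kb downstream the brightest were HCC2279, HARA and LC-1/SQSF.

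Whether set A differed from the other lines was tested per bin across the genome with limma, on log2(scaled covered length + 1000 bp), and the calls inside the window were then read. The stretch near chr8:129600000 was named when the window was chosen, from earlier results of these lists, so its test is not independent evidence. In chr8:129550001-129600000, 802 to 852 kb downstream of MYC, the scaled covered length was 33.3 and 56.3 kb in the libraries of LK2 and 37.4 and 40.7 kb in those of NCI-H520. It was 4.08, 2.32 and 4.88 kb in HCC95, KNS62 and HCC2814, and 0.855 kb (HCC2450) to 7.92 kb (LC-1/SQSF) in set C with a median of 3.06 kb. A scaled length can exceed the bin, because it is stretched where a list covers little in all. All 4 libraries of set A were above every other unmodified line.

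The next bin, chr8:129600001-129650000, was almost empty outside set A. It held 25.2 and 45.1 kb in LK2 and 26.98 and 27.4 kb in NCI-H520, and 0 in all 3 lines of set B. In set C only EBC-1 (0.705 kb) and Calu-1 (0.410 kb) had any. In chr8:129650001-129700000, LK2 had 4.18 and 9.08 kb and NCI-H520 10.6 and 11.2 kb. Set B had at most 0.371 kb (HCC95) and set C at most 3.43 kb (EBC-1), so the groups did not overlap in these bins either. This lack of overlap is not separate evidence, because the stretch was named from these same lists.

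Of 22 bins of the window with enough coverage to be tested, these 3 were called between set A and set B, all higher in set A. Across the genome 846 of 9148 bins were called (9.25%), 297 of them higher in set A (3.25% of all bins). The 3 bins adjoin each other and form 1 stretch, so they are not separate places. The log2 differences were 3.19 (SE 0.56, limma adjusted p = 0.00305), 4.97 (SE 0.46, adjusted p = 3.06e-05) and 3.06 (SE 0.62, adjusted p = 0.00737) in the order above. The median log2 difference was 0.23 over the 22 bins and -0.21 over all bins. The same 3 bins were called between set A and set C, again higher in set A, with log2 differences of 3.43 (SE 0.49, limma adjusted p = 0.000449), 4.81 (SE 0.39, adjusted p = 7.59e-06) and 2.09 (SE 0.54, adjusted p = 0.0205). Here 1212 of 9148 bins of the genome were called (13.2%), 5.6% of all bins in that direction, and the median was -0.17 in the window and -0.15 over all bins. Of the 1212 calls 42.2% were higher in set A, beside 17.5% of 1130 calls without scaling to the same total, which moved the median of all bins to -0.66. These comparisons share the lines of set A. Leaving out LC-1/SQSF or NCI-H2887 raised the count against set C to 5 in each case, and with the same number of top peaks per list 1 of the 3 bins was called against set B. The middle bin was called under each of the 13 and 18 alternatives run for it.

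**Figure D3:**
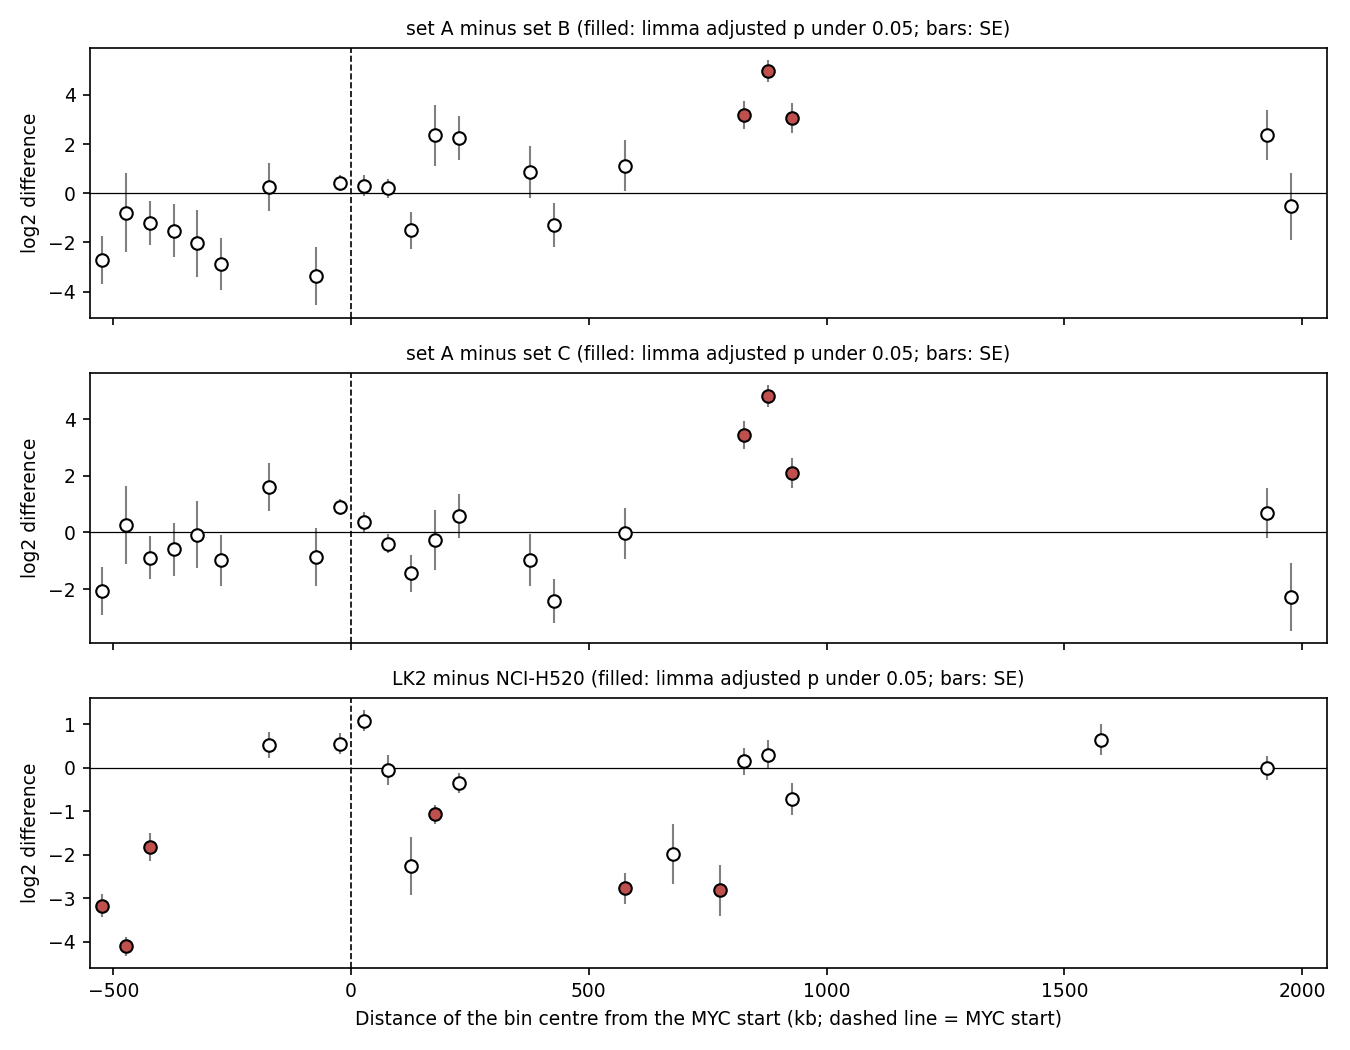
Difference in log2(scaled H3K27ac covered length + 1000 bp) per tested bin (points, with SE bars) against distance from the MYC start (kb), for set A minus set B, set A minus set C and LK2 minus NCI-H520. Filled points passed a limma adjusted p of 0.05, which were the 3 bins at 802 to 952 kb downstream in the upper panels and 6 bins below 0 in the lowest.

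Between set B and set C no bin of the window and none of 9148 bins of the genome was called (0%) by limma, the one tool run. At an unadjusted p under 0.05 there were 6 of 22 bins of the window, beside 1079 bins of the genome (11.8%). Those 6 were higher in set B upstream of MYC and higher in set C downstream. The latter included chr8:128900001-128950000, with at most 1.59 kb in set B and 0 to 34.0 kb in set C (log2 difference -2.62, SE 0.91, limma adjusted p = 0.361).

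LK2 and NCI-H520 both carried the far downstream stretch and differed in 3 bins upstream of MYC and in 3 other bins downstream. Of 18 bins tested between their libraries, 6 were called, all with less acetylation in LK2. Of all 8397 bins 14.9% were called, 8.5% of all bins in that direction. The bin chr8:128250001-128300000 held 0 in both libraries of LK2, and 15.1 and 17.4 kb in NCI-H520 (log2 difference -4.10, SE 0.22, limma adjusted p = 0.00277). The bin before it held 0, and 8.81 and 7.27 kb (-3.17, SE 0.27, limma adjusted p = 0.00656), and the bin after it 1.11 and 1.75 kb, and 9.86 and 5.69 kb (-1.82, SE 0.33, limma adjusted p = 0.0302). The other 3 lay downstream at chr8:128900001-128950000 (-1.07, SE 0.21, limma adjusted p = 0.0391), chr8:129300001-129350000 (-2.78, SE 0.35, limma adjusted p = 0.0134) and chr8:129500001-129550000 (-2.82, SE 0.58, limma adjusted p = 0.0423). Libraries did not overlap between the lines in any of the 6, which is not separate evidence, because the bins were called on these same libraries. The median log2 difference was -0.54 in the window and 0.24 over all bins. Without scaling the median of all bins was -0.56, and 8.11% of 1935 calls over the genome were higher in LK2, beside 42.8% of 1249 with it. The calls in the window were lower in LK2 under both, 6 with scaling and 9 without. With 2 libraries a line the calls were fragile. None of the 6 remained without either library of LK2 (0 called in each case), 3 bins were called without NCI-H520 replicate 1 and 2 without NCI-H520 replicate 2, the lone library being assumed to vary like the other line.

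Joined across the 13 lines, the H3K27ac peaks of the window formed 183 regions, of which 81 (44.3%) were found in 1 line, beside 50.7% of 114125 regions genome-wide. HARA held 13 of these 81 and HCC2450 12, with 1 library each. NCI-H520 held 23 over its 2 libraries, of which 3 were in both libraries, and LK2 held 3, of which 0 were in both. Regions in all 13 lines numbered 6 (3.28%, beside 6.64% genome-wide). Where both libraries of LK2 and NCI-H520 had to hold the region, 4 were left (2.50%, beside 5.27%). The 6 were the MYC promoter (chr8:128744649-128756069), 3 regions that began 56.4 to 112 kb after the MYC start (chr8:128804665-128816657, chr8:128817766-128825631 and chr8:128860147-128880819), 1 upstream (chr8:128301066-128325121) and 1 far downstream (chr8:129555569-129577949). LK2 covered just 0.219 kb of the region at chr8:128817766 and 0.333 kb of that at chr8:128860147, as means of its libraries. The far downstream region lies inside the stretch high in set A. It covered 12.6 kb in LK2 and 21.1 kb in NCI-H520, beside 1.19 to 7.19 kb in the other lines, so every line had acetylation in it and set A the most.

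The neighbouring region, chr8:129586449-129623204, was 36.8 kb long and began 838 kb downstream of MYC. It covered 36.2 kb in NCI-H520 and 27.05 kb in LK2 as means of 2 libraries, 3.16 kb in LC-1/SQSF, 0.679 kb in EBC-1 and 0.563 kb in Calu-1, and nothing in the other 8 lines. Its widest peak in LK2 replicate 2, 26.5 kb long, was also the widest of all 16470 peaks of that list. The peaks of 32.2 and 32.6 kb in NCI-H520 had width ranks of 12 and 11. In LK2 replicate 1, a list of narrower peaks, the widest peak of the window was instead the one at the MYC start (6.96 kb). The widest joined region was chr8:128248338-128300934, 52.6 kb long and found in 11 lines, all but LK2 and NCI-H2887.

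Regions found in LK2 and NCI-H520 and in no other line numbered 4 (2.19%, beside 1.84% genome-wide), so the window was close to the genome in this share. They were short. The closest to MYC was chr8:128738252-128740736, 10.1 kb before the start, with a Sox2 peak in NCI-H520. The others were chr8:128947937-128949830, chr8:130346885-130350504 and chr8:130352724-130353845, each with a Sox2 peak in NCI-H520. The region at chr8:130346885 had a Sox2 peak in LK2 too. Only 2 of the 4 held when both libraries of each line had to carry the region. No region was found in all of set B and in no other line (126 genome-wide, 0.110%).

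Similarity between lines was measured by the Jaccard index, the shared covered length divided by the joint one. HCC95 and KNS62 had the highest index of the 78 pairs in the window (0.529, beside 0.449 genome-wide), Calu-1 and HCC2279 had 0.478 and HARA and LC-1/SQSF 0.468. The index of LK2 and NCI-H520 was 0.337 (0.364 genome-wide), rank 17 of 78 and the highest that either line reached. Repeat libraries reached 0.629 in LK2 and 0.579 in NCI-H520, so lines differed more than repeats.

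Sox2 peaks were dense in the window, and a larger part of them lay upstream of MYC in the lines of set B than in those of set A. The window, 0.0857% of the genome by length, held 27 of 7611 Sox2 peaks in LK2 (0.355%, Wilson 95% interval 0.244 to 0.516) and 45 of 12048 in NCI-H520 (0.374%, 0.279 to 0.499). It held 25 of 14048 in HCC95 (0.178%, 0.121 to 0.263), 25 of 8907 in KNS62 (0.281%, 0.190 to 0.414) and 33 of 7511 in HCC2814 (0.439%, 0.313 to 0.616). These intervals cover counting error only. By number of Sox2 peaks the window ranked 1 of 1156 tiles in LK2, 4 in NCI-H520, 5 in HCC2814, 18 in KNS62 and 118 in HCC95. In LK2 3 of 27 peaks lay upstream of MYC, and in NCI-H520 11 of 45. In HCC95 there were 18 of 25, in KNS62 12 of 25 and in HCC2814 12 of 33. There was 1 Sox2 library per line, so the lines were not tested against each other.

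Most Sox2 peaks of the window overlapped H3K27ac of their own line in NCI-H520, HCC95 and KNS62. The count was 21 of 25 in HCC95 (84.0%, beside 56.1% of the whole list), 20 of 25 in KNS62 (80.0%, beside 60.6%) and 35 of 45 in NCI-H520 (77.8%, beside 60.9%). In LK2 it was 13 of 27 (48.1%, beside 39.5%) and in HCC2814 13 of 33 (39.4%, beside 38.3%). The share of LK2 moved with the setting, to 8 of 27 (29.6%, beside 28.3%) where an overlap had to cover 50% of the shorter peak and to 11 of 16 (68.8%, beside 46.2%) with the same number of top peaks per list. In HCC2814 the acetylated Sox2 peaks were nearly all upstream, with 11 of 12 upstream peaks and 2 of 21 downstream peaks in H3K27ac.

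**Figure D4:**
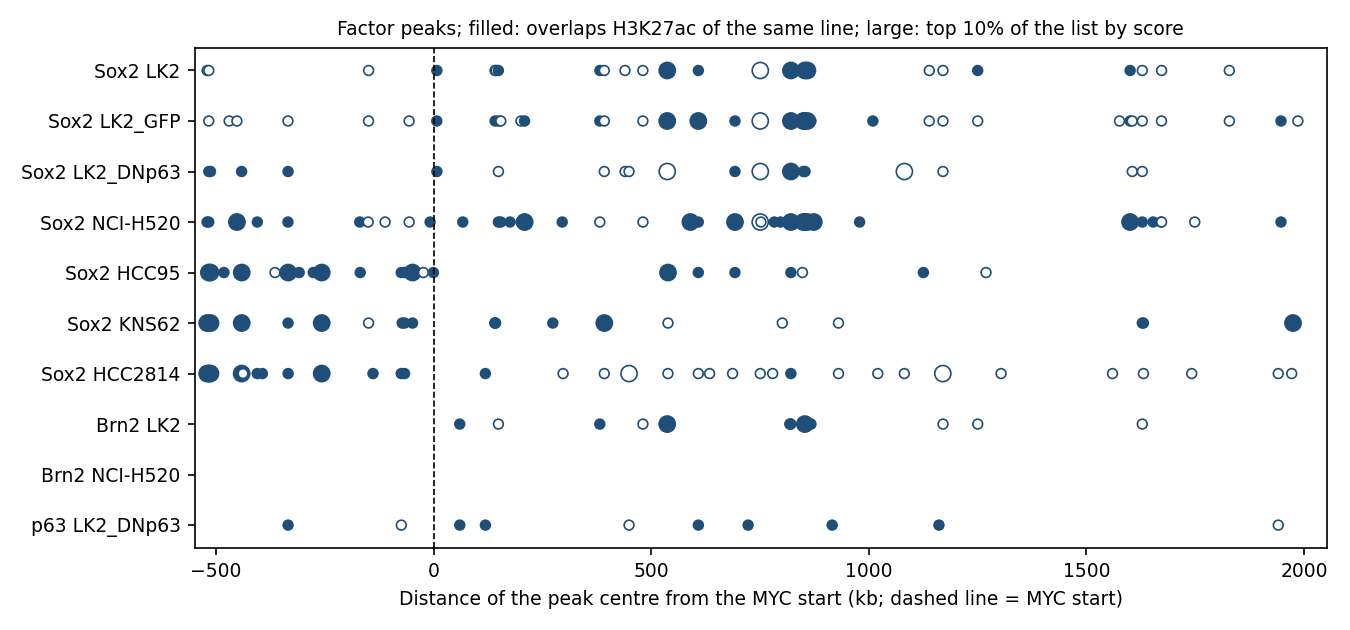
Peaks of the 10 factor lists (rows) by distance of the peak centre from the MYC start (kb), filled where the peak overlapped H3K27ac of the same line and large where its score was in the top 10% of its list. Peaks of HCC95 crowded upstream of the dashed line (18 of 25), Brn2 peaks of LK2 lay all downstream (17 of 17), and the row of Brn2 in NCI-H520 is empty.

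Joining the Sox2 peaks of the 5 unmodified lines gave 101 sites, of which 69 were found in 1 line (68.3%, beside 72.5% of 35819 sites genome-wide). Just 2 were bound in all 5 lines (1.98%, beside 0.790% genome-wide), and 0 when the lists were cut to the same number of top peaks (0.609% genome-wide). Both lay in the upstream acetylated bin, at chr8:128227141-128228235 and chr8:128230852-128232058, 521 and 517 kb before MYC. The first was the sixth highest-scored Sox2 peak of KNS62 (rank 6 of 8907) and ranked 241 in HCC2814, 5207 in HCC95, 7345 in LK2 and 7422 in NCI-H520. The second ranked 90 in HCC2814, 213 in HCC95, 3626 in NCI-H520, 4679 in KNS62 and 5523 in LK2. Each site was thus high in the lists of a pair of set B lines and far lower in those of LK2 and NCI-H520. LK2 had Sox2 peaks at both sites and no H3K27ac peak at either.

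Sites in all 3 lines of set B and in neither line of set A numbered 5 (4.95%, beside 3.14%), and 4 of them were upstream. They began at chr8:128234691, chr8:128306093, chr8:128490396 and chr8:128681059, and the downstream one at chr8:129286305. The first ranked 75 in KNS62, 385 in HCC2814 and 699 in HCC95, and the second 98, 191 and 528. Downstream of MYC lay 69 of all 101 sites of the window. Sites in LK2 and NCI-H520 and in no line of set B numbered 9 (8.91%, beside 5.48%), and all 9 were downstream of MYC. They began at chr8:128896436, chr8:129129663, chr8:129228377, chr8:129566847, chr8:129596837, chr8:129600528, chr8:129606355, chr8:130348145 and chr8:130420492, so 4 of them fell in the stretch high in H3K27ac in set A. The site at chr8:129600528-129601880 ranked 89 of 7611 in LK2 and 682 of 12048 in NCI-H520.

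The highest-scored Sox2 peak of the window in LK2 was in the same stretch, at chr8:129568647-129569518, 821 kb downstream of MYC (rank 61). The site ranked 310 in NCI-H520 and was also bound in HCC95 (rank 6589) and HCC2814 (rank 4491), and its LK2 peak overlapped H3K27ac in 11 of the 13 lines. The top peak of the window in NCI-H520 was upstream instead, at chr8:128295452-128296640 (rank 209), in the bin that was acetylated in NCI-H520 and not in LK2. In HCC95 the top peak was at the upstream site of all 5 lines (rank 213).

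Sites bound in 4 lines numbered 3. Besides the one above they were chr8:128412874-128414064, in all lines but LK2 (rank 250 in HCC95), and chr8:129355985-129356871, in all but KNS62 (rank 826 in LK2). Both also carried a p63 peak in LK2_DNp63. A further site without acetylation in any of the 13 lines, chr8:129498173-129499100, ranked 444 in LK2 and 898 in NCI-H520 and was found in HCC2814 too (rank 6682).

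Brn2 was present in the window in LK2 alone. LK2 had 17 of 4819 Brn2 peaks there (0.353%, 0.220 to 0.564), and only 3 tiles of the genome held more (rank 4). NCI-H520 had 0 of 1298, which allows a share of up to 0.231%, a limit inside the interval of LK2, and that list was the shortest of all. Brn2 chromatin was also cross-linked and cut in another way than that of the other lists. All 17 Brn2 peaks of LK2 lay downstream of MYC, the longer side of the window. The 150 kb of the 3 called bins held 9 of them, and also 6 of the 27 Sox2 peaks of LK2. These bins were picked by their acetylation in set A, and no genome-wide share for such bins is given beside these counts.

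Brn2 and Sox2 peaks coincided in the window. In LK2 14 of 17 Brn2 peaks overlapped a Sox2 peak of LK2 (82.4%, Wilson 95% interval 59.0 to 93.8), beside 39.9% of the whole Brn2 list. A Sox2 peak of NCI-H520 was overlapped by 12 of 17 (70.6%, beside 27.3%), and H3K27ac of LK2 by 12 of 17 (70.6%, beside 52.1%). Several of these peaks share a stretch, so they are not independent of each other. The 5 with the highest scores were at chr8:129600755-129601547 (rank 446 of 4819), chr8:129284495-129285312 (rank 474), chr8:129597251-129598278 (rank 627), chr8:129567053-129567532 (rank 919) and chr8:129998143-129998613 (rank 1122). Each overlapped Sox2 of LK2, and 3 of the 5 were in the stretch high in set A. The second was within a Sox2 peak of LK2 that no other unmodified line had (rank 457). The fifth lay outside H3K27ac in all 13 lines. The region of 36.8 kb held 6 Brn2 peaks and 4 Sox2 peaks of LK2 and 5 Sox2 peaks of NCI-H520, whereas of set B only HCC95 had a Sox2 peak there.

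The p63 list of LK2_DNp63 had 10 of 3159 peaks in the window (0.317%, 0.172 to 0.582, rank 19 of the tiles), 2 upstream and 8 downstream of MYC. They were weak within their list. The highest, at chr8:129196644-129197477, ranked 1117, and it lay in the bin that was high in SQ-1, HCC2279, EBC-1, HCC2450 and Calu-1. In LK2_DNp63 7 of 10 overlapped H3K27ac (70.0%, beside 47.7% of the list), and 4 of 10 where the overlap had to cover 50% of the shorter peak (40%, beside 38.3%). Sox2 of LK2_DNp63 was overlapped by 2 of 10, and Sox2 of HCC2814 by 6 of 10 (60%, interval 31.3 to 83.2, beside 12.0% of the list), or 4 of 10 with the same number of top peaks per Sox2 list (40%, beside 7.22%). The other lines of set B were near their list share, with 3 of 10 in HCC95 (30%, beside 27.9%) and 1 of 10 in KNS62 (10%, beside 12.0%). In set A the counts were 2 of 10 in NCI-H520 (20%, beside 5.22%) and 1 of 10 in LK2 (10%, beside 5.51%). The 10 peaks began at chr8:128413267, chr8:128673537, chr8:128807768, chr8:128866722, chr8:129196644, chr8:129356134, chr8:129470462, chr8:129663652, chr8:129908922 and chr8:130688703. The third lay in a region acetylated in all 13 lines and also overlapped a Brn2 peak of LK2 (rank 4252). The second lay in the region close before MYC that was acetylated in set B, HARA and LC-1/SQSF.

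LK2_DNp63 had more acetylation than LK2_GFP upstream of MYC, where LK2 had little. With 1 library per derivative there is no replicate check and no test. The upstream covered length of the window was 16.2 kb in LK2_DNp63 and 6.21 kb in LK2_GFP, beside a total of 76.9 and 75.0 kb, and the upstream share was 21.0% and 8.28%. In chr8:128200001-128250000 LK2_DNp63 had 6.27 kb of H3K27ac, whereas LK2_GFP and both libraries of LK2 had 0. Of 39 H3K27ac peaks of LK2_DNp63 in the window, 14 had no overlapping peak in LK2_GFP (35.9%, beside 26.6% genome-wide), and 8 of these 14 were upstream of MYC. They included chr8:128229518-128233220 (3.70 kb) and chr8:128234068-128236178 (2.11 kb), neither of which was present in LK2.

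Of these 8 upstream peaks, several lay at Sox2 sites of set B. The first covered the Sox2 site of all 5 lines at chr8:128230852, with Sox2 peaks in LK2_GFP and LK2_DNp63. The second covered the set B site at chr8:128234691, where LK2_DNp63 had a Sox2 peak and LK2_GFP and LK2 had none. A pair of short H3K27ac peaks (0.509 and 0.541 kb) lay within the set B site at chr8:128306093, again with Sox2 in LK2_DNp63 and none in LK2_GFP. A further one, chr8:128412713-128414375 (1.66 kb), carried 1 of the 2 upstream p63 peaks and Sox2 peaks of both derivatives. Just 1 of the 8 upstream peaks overlapped a p63 peak. Upstream of MYC, all 4 Sox2 peaks of LK2_DNp63 lay in H3K27ac peaks of LK2_DNp63, whereas 0 of 6 did in LK2_GFP and 0 of 3 in LK2. Downstream the counts were 6 of 17 in LK2_DNp63, 17 of 31 in LK2_GFP and 13 of 24 in LK2. Over whole lists the shares were alike, at 45.5%, 43.9% and 39.5%.

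In the stretch high in set A the difference had the other direction. The bin chr8:129600001-129650000 had 14.6 kb in LK2_GFP, 8.06 kb in LK2_DNp63 and 13.8 and 21.0 kb in LK2, so LK2_DNp63 was the lowest of the 4 libraries. A peak of 4.14 kb at chr8:129612397-129616537 in LK2_GFP, present in LK2, had no partner in LK2_DNp63. The bin before it did not differ in this way, with 16.2 kb in LK2_GFP and 16.3 kb in LK2_DNp63. At the MYC start the bins had 4.04 and 3.54 kb. In all, 20 of 49 H3K27ac peaks of LK2_GFP had no partner in LK2_DNp63 (40.8%, beside 26.5% genome-wide). For Sox2, 22 of 37 peaks of LK2_GFP had none in LK2_DNp63 (59.5%, beside 70.8% genome-wide). The Sox2 list of LK2_DNp63 was also the shorter, with 4217 peaks against 12034. In both derivatives the highest-scored Sox2 peak of the window was at the site of LK2 near chr8:129568647, with rank 27 in LK2_GFP and 85 in LK2_DNp63.

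**Figure D5:**
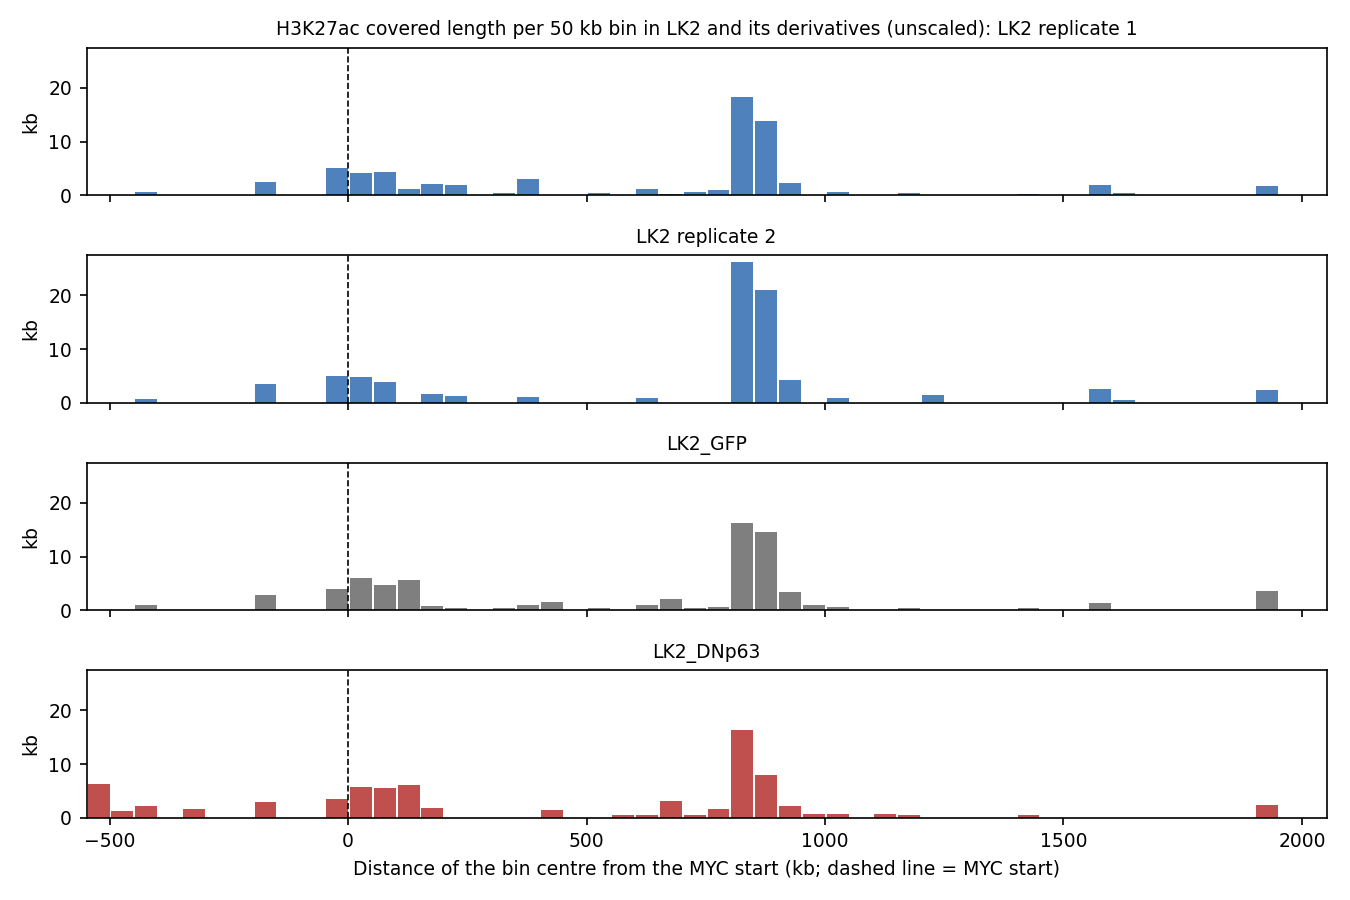
Unscaled H3K27ac covered length (kb, y axis) per 50 kb bin by distance from the MYC start (kb) in both libraries of LK2, in LK2_GFP and in LK2_DNp63. Bars at the far left, 6.27 kb in the first bin, were present in LK2_DNp63 and absent from the other 3 libraries, and the bar at 852 to 902 kb was lowest in LK2_DNp63 (8.06 kb).

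Over the 13 lines, the bin of other chromosomes whose log2 scaled covered length followed the MYC-start bin most closely was chr6:31650001-31700000 (Pearson r = 0.974), followed by chr3:186250001-186300000 (0.946), chr12:52400001-52450000 (0.942), chr9:96200001-96250000 (0.924) and chr11:74200001-74250000 (0.923). Such likeness was common, since 215 of 8782 bins had r over 0.8 with it. For the window as a whole the closest was chr19:11500001-11550000 (0.885), followed by chr12:850001-900000 (0.760), chr2:3600001-3650000 (0.743), chr12:122100001-122150000 (0.732) and chr20:350001-400000 (0.724). These are descriptions over 13 points from lists of different length.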

How the data were processed

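ChIP-seq peak lists of 27 samples were used. The submitters' processing notes name Bowtie2, a read aligner, and the build hg19. Peaks carry names with the prefix MACS, a peak-calling program. For its version, threshold and inputs, details were not given in the sources used. The only measure per peak that the authors deposited is a score of no stated scale, used here to rank peaks within a list. Of 652792 deposited peaks, 2092 off chromosomes 1 to 22 and X were left out. Copy number was not analysed here.

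Covered length per 50 kb bin was scaled to the same total per library (53.0 Mb), so values of a list with little coverage are stretched. Differences were tested with limma 3.58.1 in R 4.3.3 on log2(length + 1000 bp), with a mean-variance trend and all 3 sets in 1 fit, keeping bins whose mean reached 2000 bp, with Benjamini-Hochberg adjustment over the genome and a threshold of 0.05. A log2 difference understates changes of bins with little coverage. Log values of the 2 libraries of LK2 and of NCI-H520 were averaged to 1 value per line. Peaks were joined where they touched and called shared at 1 bp. Intervals are Wilson 95%, and the limit for a count of 0 is 3 counts. On simulated set A minus set C data, 12%, 52%, 80% and 88% of 50 bins changed by log2 1, 2, 3 and 4 were called among 9148 bins, with 7 false calls. The simulated noise was normal and independent between bins, whereas many real bins were empty in several lines. These rates therefore describe the simulated setting only.

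The window, the members and the lists of bins and sites were chosen with earlier results of these data known. Named were the MYC-start bin and the next, every called bin, each line's fullest bin, regions in all 13 lines or in LK2 and NCI-H520 alone, the widest region, Sox2 sites of several lines, top Sox2 peaks, all p63 peaks and the 5 top Brn2 peaks. The other bins and regions described were chosen after their values were seen. Alternatives changed the pseudocount, filter, scaling, number of peaks, bin grid, lines in the fit, merging, overlap and libraries. Same-numbered libraries of LK2 and NCI-H520 were checked for pairing. Their deviations from the line means had a weak negative correlation (-0.17 over 8397 bins, 2 pairs). With 2 libraries a line, both pairs give the same value. The main fit did not treat the numbers as pairs, and a block on them was run as an alternative.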

Additional observations from a re-analysis of the deposited data

Results flagged for a closer look

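In set C, LC-1/SQSF lay far above the other 7 lines in the bin chr8:129500001-129550000, with 6.01 kb of scaled H3K27ac covered length where the next line had 1.32 kb. Of 15 sets of values looked at in this way this was the single one with a line so far from the others. For normal values the rule flags about 1 set in 20 by chance, so 1 flag among 15 sets is not unusual. That rate does not hold for this bin, because HARA, SQ-1, Calu-1, EBC-1 and NCI-H2887 all had 0 in it. No conclusion is drawn from the flag.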

How the results depend on the processing

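Between set A and set B 3 bins of the window were called. Other fits gave counts of 5 with no filter on coverage, 1 with the same number of top peaks per list, 6 with only the compared sets in the fit (4 higher and 2 lower in set A), and 2 to 3 with a line left out. Between set A and set C there were 5 with no filter and 2 to 5 with a line left out. Between LK2 and NCI-H520 a left-out library gave 0 to 3 in place of 6. The genome-wide counts moved too, for set A and set B from 846 to 1768 with no filter, 1822 with only the compared sets, 470 without scaling and 419 with top peaks, and to 366, 184, 539 and 542 without LK2, NCI-H520, HCC95 or HCC2814. For set A and set C they moved from 1212 to 2189 with no filter, 569 with top peaks, 442 without LK2 and 296 without NCI-H520. For LK2 and NCI-H520 they moved from 1249 to 1935 without scaling, and to 168, 0, 234 and 415 without LK2 replicate 1 or 2 or NCI-H520 replicate 1 or 2. Set B and set C had 0 bins of the window called under every alternative run, with 0 to 46 over the genome.

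The bin chr8:129550001-129600000 lost its call against set B with top peaks (limma adjusted p = 0.0673), and chr8:129650001-129700000 lost it against set B without scaling (0.0612) and against set C with a pseudocount of 200 bp (0.0703), without scaling (0.125) and with replicate 1 alone (0.0501). In the MYC-start bin the log2 difference of LK2 minus NCI-H520, 0.55, became -0.23 without scaling, and neither passed the threshold. Without scaling the median log2 difference of all bins moved from -0.21 to -0.51 for set A minus set B and from 0.11 to -0.08 for set B minus set C. The cause of these changes was not tested.

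With the replicate number as a block, 5 bins of the window (841 of the genome, beside 1249) were called between LK2 and NCI-H520, and chr8:128900001-128950000 lost its call (limma adjusted p = 0.0860). With crossed numbers, a pairing chosen after seeing the data, the counts were 9 and 1899. Regions in all 13 lines fell from 6 to 2 with top peaks, and to 4 when both libraries of LK2 and NCI-H520 had to hold them. Under the latter rule regions of LK2 and NCI-H520 alone fell from 4 to 2. Regions in 1 line fell from 81 to 49 with peaks within 1000 bp joined and to 37 with top peaks. Sox2 sites of all of set B and none of set A fell from 5 to 3 with top peaks, and those of all 5 lines from 2 to 0. Read depth, which the lists do not give, limits every comparison of peak numbers.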
